A study of Mus musculus with 18 samples.

Results

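The protein kinase C (PKC) family was followed across wild-type (WT), GRTH knock-out (KO) and GRTH knock-in (KI) round spermatids (RS) through 8 of its genes. Prkca and Prkcb encode conventional isoforms. Prkcd, Prkce, Prkch and Prkcq encode calcium-independent isoforms that still respond to diacylglycerol, and Prkci and Prkcz encode atypical isoforms. The 8 genes were taken by symbol from the 54232 genes of the count table, and all 8 were among the 21058 genes that passed the filter on low counts. RS are haploid germ cells that have finished meiosis and have not begun to elongate. They were isolated from the testes of mice aged 75 to 85 days by sedimentation through a gradient of bovine serum albumin. WT mice carry the normal gene. KO mice lack GRTH, the testicular RNA helicase encoded by Ddx25. KI mice, as the study describes them, carry a human GRTH gene with a missense mutation and lack the phosphorylated form of the protein. Each genotype had 6 libraries, and the sources used here give neither the strain nor whether each library came from a separate animal, so the p-values measure only the spread between these libraries.

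PKC isoforms are serine/threonine kinases that carry signals from phospholipase C. That enzyme cleaves a membrane lipid into diacylglycerol, which binds conventional and calcium-independent isoforms, and inositol trisphosphate, which releases calcium, a second signal for the conventional isoforms. Atypical isoforms respond to neither and act largely through partners such as the PAR6 polarity proteins. In T cells PKC-theta, the product of Prkcq, relays antigen receptor signals, and PKC-delta, the product of Prkcd, is best known for roles in apoptosis and in B cell tolerance.

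Each library held from 18766971 to 26776555 counts on genes. Levels are normalized CPM, a gene's counts divided by the library size after TMM scaling in edgeR. Ddx25 was at 567 ± 24.7 CPM in WT (SD, n = 6) and at 70.0 ± 14.8 CPM in KO (SD, n = 6), and KI libraries had 0.0456 to 0.519 CPM except for the library labelled KI 4. That library had 56.9 CPM, within the KO range of 47.7 to 90.9 CPM, so it goes against its label. The KI tests of the members and the order of their levels are given with and without it. Counts of KI calls are given without it where they change. Some libraries resembled each other closely. On an index that is 1 where 2 libraries differ by counting noise alone, 6 pairs within a genotype lay between 2.06 and 3.02, and KO 2 and the library labelled KI 4 had 1.59. Whether these came from separate animals is not known, and they are treated as replicates here.

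The seed matches of miR-26a-5p and miR-181d-5p in the 3′ untranslated regions (UTRs) of the members are shown because the mRNA and miRNA pairs examined by the study include Prkcq and Prkcd. A miRNA pairs with its targets mainly through bases 2 to 8, its seed, printed in capitals (RefSeq sequences, GRCm38; 2 loci, on chromosomes 9 and 10, give the same mature miR-26a-5p, and Mir181d is on chromosome 8).
miR-26a-5p: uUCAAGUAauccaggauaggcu
miR-181d-5p: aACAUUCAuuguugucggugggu

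The longest annotated 3′ UTR of each member (GENCODE M21, GRCm38) was searched on the transcript strand for TACTTGA, the match to the miR-26a-5p seed, and for TGAATGT, the match to the miR-181d-5p seed. An 8mer is the full match followed by A, a 7mer-A1 is its last 6 bases followed by A, and a 7mer-m8 is the full match alone. Prkcq held 2 matches for miR-26a-5p in a UTR of 1097 bases, and Prkcd held 1 match for each miRNA in a UTR of 513 bases, the latter sharing letters since the matches start at UTR positions 232 and 236. Prkci held an 8mer for miR-26a-5p near the end of a UTR of 2682 bases. Matched letters are in capitals.
Prkcq, miR-26a-5p 8mer, chr2:11300392-11300421 (+): ctctagtcattTACTTGAAagatggttccc
Prkcq, miR-26a-5p 7mer-A1, chr2:11300681-11300710 (+): catagcatgaaACTTGAAatttacaaatct
Prkcd, miR-26a-5p 8mer, chr14:30595617-30595646 (-): ctgtgtttcatTACTTGAAtgtagttattg
Prkcd, miR-181d-5p 8mer, chr14:30595613-30595642 (-): gtttcattactTGAATGTAgttattgaaat
Prkci, miR-26a-5p 8mer, chr3:31052914-31052943 (+): cagctacagtgTACTTGAAtaaataaacct

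For miR-181d-5p, Prkca held a 7mer-A1 and Prkce a 7mer-m8, and the other members held no match for either miRNA. Such matches are frequent. Of 20954 genes with an annotated 3′ UTR, 18.36% held a match of these kinds for miR-26a-5p and 4.2% an 8mer, against 21.08% and 5.302% for miR-181d-5p. A match is a string of letters and not a measured site, and miRNA levels were not analysed here.

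Prkcq and Prkcd were lower in KO and KI than in WT with no overlap between the libraries, and Prkca was higher in both without overlap. The share of all genes tested that lack such overlap was not counted, so the lack of overlap does not set these members apart from other genes. Prkch and Prkcz were lower in KI. In KO, 2 of the 8 members were lower and 1 was higher by edgeR's quasi-likelihood test for a change of any amount (Benjamini-Hochberg adjusted p under 0.1 over all genes tested). With the library labelled KI 4 left out of the shared fit, 3 were lower in KO. Of all genes tested, 13.5% were lower and 16.4% higher in KO. In KI, 4 of the 8 members were lower and 1 was higher, against 15.4% and 16.1% of all genes. The median log2 fold change of the members was -0.34 in KO and -0.38 in KI, and the median of all genes was 0.03 and 0.05. KO and KI were compared with the same WT libraries, so the 2 contrasts are not independent.

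**Figure D1:**
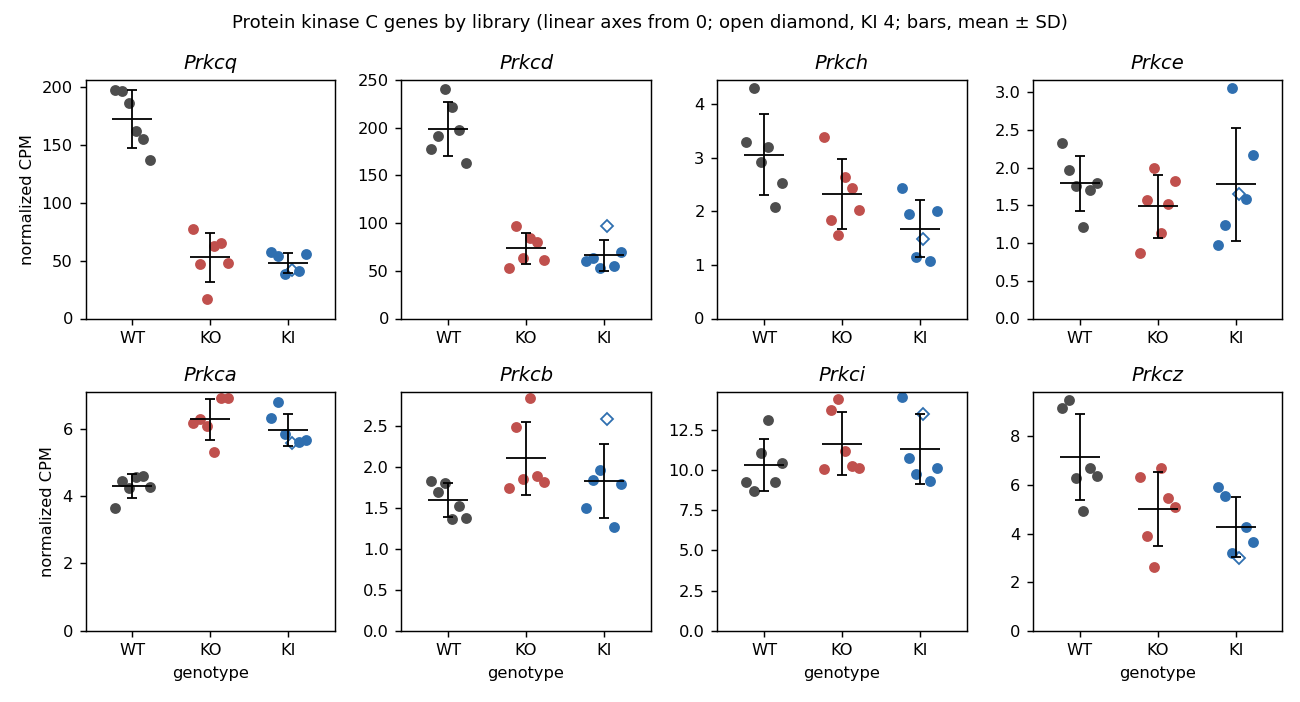
Normalized CPM (vertical axes, linear from 0, scaled separately) of each PKC gene in every WT, KO and KI library (points, with the library labelled KI 4 as an open diamond), with the mean ± SD over the 6 libraries of a genotype. Prkcq and Prkcd fall from 137 CPM or more in every WT library to at most 97.4 CPM in every KO and KI library, and the other members reach at most 14.6 CPM.

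Prkcq (ENSMUSG00000026778, chr2:11172108-11301222, plus strand) encodes PKC-theta. In WT its level was lowest at 137 CPM, had a median of 174 CPM and was highest at 197 CPM. In KO the lowest, median and highest values were 16.7, 55.1 and 77.5 CPM. In KI they were 38.2, 47.9 and 57.6 CPM, and without the library labelled KI 4 the median was 53.8 CPM. The WT libraries thus lay above all others, and KO 3 lay well below the remaining KO libraries, of which the next had 47.3 CPM. These values rest on 2982 to 4894 counts in WT, 351 to 1701 in KO and 837 to 1358 in KI. The log2 fold change was -1.70 ± 0.24 (SE) in KO, a level 3.26-fold lower, with an adjusted p of 1.36e-05. In KI it was -1.84 ± 0.24 (SE), 3.59-fold lower, with an adjusted p of 4.53e-06, and without the library labelled KI 4 it was -1.81 ± 0.26 (SE) with an adjusted p of 2.28e-05.

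Prkcd (ENSMUSG00000021948, chr14:30595354-30626210, minus strand) encodes PKC-delta. In WT the lowest, median and highest levels were 163, 194 and 241 CPM. In KO they were 53.4, 72.1 and 97.1 CPM. In KI they were 52.8, 61.8 and 97.4 CPM. The highest KI value came from the library labelled KI 4, and the other KI libraries reached at most 69.5 CPM. Thus KO and KI overlapped, and neither reached the WT range. The log2 fold change was -1.44 ± 0.17 (SE) in KO, a level 2.71-fold lower, with an adjusted p of 1.16e-06. In KI it was -1.58 ± 0.17 (SE), 2.99-fold lower, with an adjusted p of 2.71e-07, and it was -1.72 ± 0.16 (SE) without the library labelled KI 4, with an adjusted p of 6.18e-08.

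A change of more than 1 log2 unit was tested with glmTreat of edgeR. In KI Prkcq (adjusted p = 0.0430) and Prkcd (adjusted p = 0.0507) passed, as did 1.43% of all genes in the lower direction. Without the library labelled KI 4 both again passed, with adjusted p of 0.0992 and 0.00502. In KO 0 of the 8 members passed by edgeR or by DESeq2, where 1.13% of all genes were lower by this test. Prkcq had an adjusted p of 0.153 and Prkcd of 0.301 in KO, and 2 members were under an unadjusted p of 0.05. In KI the call of Prkcq was lost without any of WT 1, WT 2, WT 3, KI 3 or KI 5 (adjusted p up to 0.111) and that of Prkcd without any of WT 3, WT 4, KI 1, KI 2, KI 3 or KI 5 (up to 0.183), so that 0 to 2 members passed, while in KO Prkcq passed without KO 1, KO 3 or WT 6 (adjusted p of 0.0503, 0.0812 and 0.0967). With each close pair of libraries summed to 1, neither gene passed in KI, with adjusted p of 0.581 for Prkcq and 0.987 for Prkcd.

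Markers of late spermatids were lower in KO and KI as well. All 8 late spermatid genes listed (Prm1, Prm2, Prm3, Tnp1, Tnp2, Akap4, Odf1 and Smcp) were lower by more than 1 log2 unit in KO and in KI, and their summed level was 14216 to 19771 CPM for WT, 1662 to 4190 CPM for KO and 2203 to 3417 CPM for KI. KO 3, the lowest KO library for Prkcq, also had the lowest late spermatid sum in KO, and KI 3 was the lowest KI library for both. The order did not hold for every library. KO 1 was highest in KO for Prkcq and lowest for Prkcd while its late spermatid sum ranked in the middle, at 3389 CPM, and the library labelled KI 4 had the highest late spermatid sum in KI with 42.1 CPM of Prkcq. The 8 round spermatid markers summed to 848 to 1308 CPM for WT, 632 to 1256 CPM for KO and 634 to 937 CPM for KI. Of them, 2 were lower in KO and 4 in KI (3 without the library labelled KI 4). For this sum too KO 3 and KI 3 were the lowest of their genotypes, and KO 1 was the highest in KO. KO 3 and KI 3 also had the highest spermatocyte sums of their genotypes, at 1078.4 and 1212.5 CPM. All 6 Leydig cell markers were higher in KO and in KI (5 of 5 tested without the library labelled KI 4), with sums of 9.76 to 19.7 CPM for WT, 29.9 to 52.0 CPM for KO and 13.4 to 66.1 CPM for KI. The KI libraries were not alike in this sum. KI 3, KI 5 and KI 6 had 16.6, 13.4 and 17.7 CPM, inside the WT range. KI 1, KI 2 and the library labelled KI 4 had 46.2, 66.1 and 49.5 CPM. Prkcq is abundant in T cells. The 8 T cell markers summed to 5.76 to 7.28 CPM for WT, 4.56 to 6.71 CPM for KO and 3.88 to 7.75 CPM for KI, and the highest KI value was that of the library labelled KI 4. The other 5 KI libraries had 3.88 to 5.25 CPM, all below the lowest WT library. Cd8a had 3 or fewer counts in every library. Of the 4 T cell markers that passed the filter, 1 was lower in KO (Zap70) and 1 in KI (Cd3d), both named after their values were seen. Without the library labelled KI 4, 2 were lower and 1 was higher in KO. The markers did not move together. On the log2 scale Ptprc was at 0.69 in KO (adjusted p = 0.118) and 0.70 in KI (adjusted p = 0.110), and Lck at 0.35 in KO and -0.10 in KI. The log2 fold change of Cd3d in KI was -1.42 (adjusted p = 7.50e-04), from 2.99 ± 0.488 CPM in WT (SD, n = 6), and without the library labelled KI 4 it was -1.84 and passed the test for more than 1 log2 unit (adjusted p = 0.0459). Of macrophage markers, 1 of 6 tested was higher in KO and 3 in KI (2 without the library labelled KI 4), with sums of 7.23 to 11.4 CPM in WT, 8.89 to 17.6 CPM with KO and 12.5 to 20.2 CPM with KI. Of Sertoli cell markers, 1 of 7 was lower in KO and 2 in KI, and 1 of 4 endothelial markers was higher in each. Of spermatogonial markers, 2 of 6 were higher in KO and 1 in KI, and without the library labelled KI 4, whose sum of 59.3 CPM was the highest in KI against 16.1 to 38.3 CPM, 0 were higher in KI. Of spermatocyte markers, 3 of 8 were higher and 1 lower in KO, with 2 and 1 in KI (1 and 1 without that library). Of all genes tested, 13.5% were lower and 16.4% higher in KO, and 15.4% were lower and 16.1% higher in KI. Counts in lists this short are not read as changes of a cell type. The part of these markers in the change of Prkcq and Prkcd was not tested, and in RNA from bulk samples fewer cells of a type and less RNA per cell cannot be told apart.

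The other calcium-independent isoforms were scarce. Prkch (ENSMUSG00000021108, chr12:73584796-73778185, plus strand) encodes PKC-eta, an isoform described mainly in epithelia. Its lowest, median and highest levels were 2.08, 3.06 and 4.30 CPM in WT, 1.57, 2.24 and 3.38 CPM in KO and 1.08, 1.72 and 2.43 CPM in KI, so the genotypes overlapped. The log2 fold change was -0.86 ± 0.23 (SE) in KI (adjusted p = 0.00809), and -0.82 ± 0.25 (SE) without the library labelled KI 4 (adjusted p = 0.0178). In KO it was -0.40 ± 0.23 (SE), which did not pass (adjusted p = 0.221). Prkce (ENSMUSG00000045038, chr17:86167785-86657919, plus strand) encodes PKC-epsilon. Its levels were 1.21 to 2.33 CPM in WT, 0.872 to 1.99 CPM in KO and 0.971 to 3.06 CPM in KI, with 16 to 67 counts in a library. Its log2 fold changes of -0.27 ± 0.26 in KO (adjusted p = 0.509) and -0.02 ± 0.25 in KI (SE, adjusted p = 0.975) did not pass, and without the library labelled KI 4 the KI value was 0.0026 ± 0.27 (adjusted p = 0.996).

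The conventional isoform Prkca (ENSMUSG00000050965, chr11:107933387-108343928, minus strand) encodes PKC-alpha and was the only member higher in either genotype by the test. Its lowest, median and highest levels were 3.66, 4.37 and 4.59 CPM in WT. They were 5.30, 6.22 and 6.93 CPM in KO and 5.59, 5.76 and 6.79 CPM in KI, so every KO and KI library lay above the highest WT library. The log2 fold change was 0.55 ± 0.12 (SE) in KO, 1.46-fold, with an adjusted p of 0.00156. In KI it was 0.47 ± 0.12 (SE), 1.39-fold, with an adjusted p of 0.00464, and 0.49 ± 0.12 (SE) without the library labelled KI 4 with an adjusted p of 0.00543. Prkcb (ENSMUSG00000052889, chr7:122288751-122634402, plus strand) encodes PKC-beta, a kinase of B cell receptor signalling. Its levels were 1.36 to 1.83 CPM in WT, 1.74 to 2.83 CPM in KO and 1.26 to 2.58 CPM in KI, the last value being that of the library labelled KI 4. Its log2 fold changes of 0.40 ± 0.19 in KO (adjusted p = 0.138) and 0.19 ± 0.19 in KI (SE, adjusted p = 0.518) did not pass, and without that library the KI value was 0.07 ± 0.19 (adjusted p = 0.834).

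Of the atypical isoforms, Prkci (ENSMUSG00000037643, chr3:30995747-31052959, plus strand) encodes PKC-iota, a kinase of cell polarity. Its lowest, median and highest levels were 8.71, 9.86 and 13.1 CPM in WT, 10.1, 10.7 and 14.4 CPM in KO and 9.30, 10.4 and 14.6 CPM in KI. The log2 fold changes of 0.18 ± 0.14 in KO (adjusted p = 0.437) and 0.14 ± 0.14 in KI (SE, adjusted p = 0.548) did not pass, and without the library labelled KI 4 the KI value was 0.08 ± 0.15 (adjusted p = 0.747). Prkcz (ENSMUSG00000029053, chr4:155260129-155361361, minus strand) encodes PKC-zeta. Its lowest, median and highest levels were 4.95, 6.51 and 9.48 CPM in WT, 2.61, 5.28 and 6.70 CPM in KO and 3.01, 3.96 and 5.92 CPM in KI. The highest KO and KI libraries lay above the lowest WT libraries. The log2 fold change was -0.74 ± 0.22 (SE) in KI (adjusted p = 0.0172), and -0.66 ± 0.23 (SE) without the library labelled KI 4 (adjusted p = 0.0413). In KO it was -0.51 ± 0.22 (SE) with an adjusted p of 0.104, just outside the threshold, and DESeq2 placed it just inside with an adjusted p of 0.0995. In KO it also passed in 9 of 18 edgeR fits that left 1 library out, among them the fit without the library labelled KI 4 (adjusted p = 0.0957). With close pairs of libraries summed the KI change missed the threshold (adjusted p = 0.103), and without KO 1 Prkch and Prkcz both passed in KO, which made 5 members called.

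**Figure D2:**
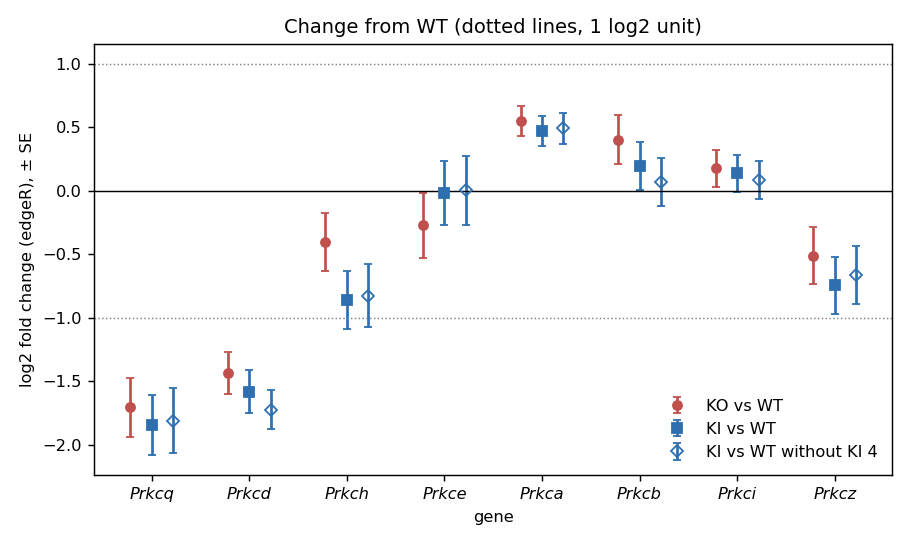
Log2 fold change of each PKC gene against WT from the edgeR fit (vertical axis; points, estimates; bars, ± SE) for KO, for KI and for KI without the library labelled KI 4, with dotted lines at 1 log2 unit in each direction. Prkcq and Prkcd lie between -1.44 and -1.84 with all libraries, and the other members lie inside the dotted lines.

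KI did not differ from KO in any member by the test. Of the 8 members, 0 were called by edgeR and by DESeq2 with all libraries. By edgeR 0 were called and 0 had an unadjusted p under 0.05, with and without the library labelled KI 4. The log2 differences, KI minus KO, ranged from -0.46 for Prkch to 0.25 for Prkce, with SEs of 0.12 to 0.25. They were -0.14 ± 0.23 for Prkcq and -0.14 ± 0.16 for Prkcd. The lowest adjusted p was 0.961, and without the library labelled KI 4 it was 0.586, for Prkcd at -0.29 ± 0.15 (SE). Few genes were called here, 0.0997% of all genes tested, or 0.522% without that library.

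Levels of different genes were compared per kilobase of exon (CPM per kb). In WT Prkcd came first at 35.8 ± 5.15 CPM per kb (SD, n = 6), then Prkcq at 24.3 ± 3.497 CPM per kb, and their library ranges did not overlap. Prkci followed at 1.86 ± 0.294 CPM per kb, 13.1-fold below Prkcq, and Prkcz at 1.13 ± 0.282 CPM per kb. The remaining order was Prkca (0.478 CPM per kb), Prkch (0.406), Prkce (0.247) and Prkcb (0.209), where each neighbour overlapped the next. The exon lengths used were 7530 bases for Prkch and 7651 for Prkcb, against longest transcripts of 3634 and 3328 bases. With transcript lengths the order of these scarce members changes in WT and in KI. In KO the same 4 genes led, with Prkcd at 13.2 ± 2.98, Prkcq at 7.47 ± 2.98 and Prkci at 2.10 ± 0.352 CPM per kb (SD, n = 6), and the ranges of Prkcd and Prkcq and those of Prkcq and Prkci overlapped. In KI Prkcd was at 11.99 ± 2.94, Prkcq at 6.78 ± 1.198 and Prkci at 2.04 ± 0.391 CPM per kb (SD, n = 6), with no overlap between these neighbours. Without the library labelled KI 4 the first 3 were at 10.9 ± 1.199, 6.95 ± 1.26 and 1.96 ± 0.381 CPM per kb (SD, n = 5), again with no overlap. The last 3 in KI were Prkce (0.245 CPM per kb), Prkcb (0.238) and Prkch (0.223), whose ranges overlapped, and without that library Prkcb (0.218) and Prkch (0.228) changed places.

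**Figure D3:**
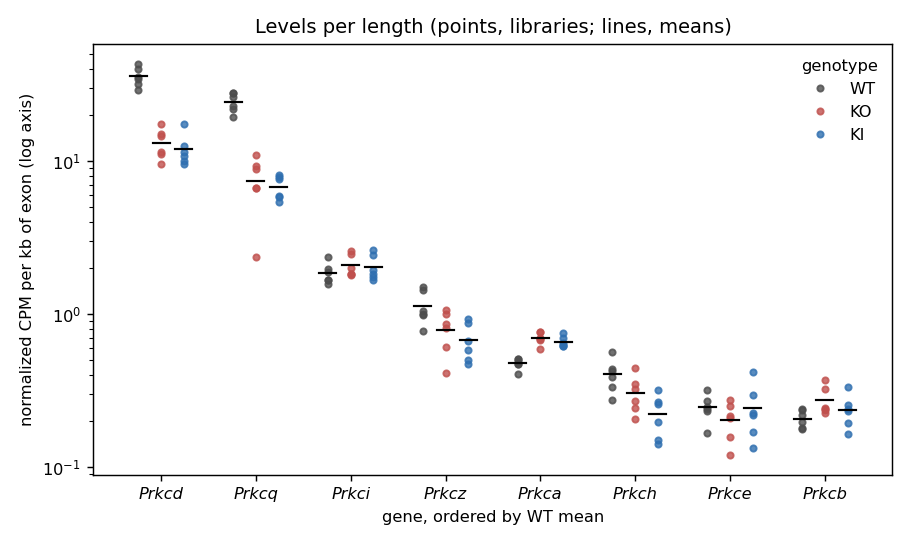
Level of each PKC gene per kilobase of exon (vertical axis, normalized CPM per kb, log axis) in each library (points) with the mean of each genotype (lines), ordered by the WT mean. Prkcd and Prkcq stand above the other members in WT, at 35.8 and 24.3 CPM per kb, and come closer to Prkci in KO and KI.

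The 8 members summed to 64.5 ± 7.06 CPM per kb in WT, with sums of 25.1 ± 4.26 for KO and 22.9 ± 3.41 for KI (SD, n = 6). Prkcq and Prkcd together made up 93.2% ± 0.663 of this sum for WT, 82.1% ± 3.37 for KO and 82.0% ± 2.11 for KI (SD, n = 6), or 81.4% ± 1.87 without the library labelled KI 4 (n = 5). The other 6 members summed to 4.33 ± 0.256 CPM per kb for WT, 4.38 ± 0.164 for KO and 4.09 ± 0.506 for KI (SD, n = 6), differences smaller than the SD of KI. The share of Prkcq alone ranged from 34.0% to 43.2% in WT and from 12.9% to 44.0% in KO, where KO 3 was lowest.

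Prkcq and Prkcd were then compared with each paralog through the log2 ratio of their counts within a library, which does not depend on scaling between libraries. Of 26 comparisons, 24 had an adjusted p under 0.1 by exact permutation tests of 6 against 6 libraries (two-sided, Benjamini-Hochberg over the 26), for which the smallest possible p is 0.00216. All 26 reuse Prkcq or Prkcd and the same WT libraries, so they are not independent. Both genes were already lower than WT without overlap, so a fall relative to a paralog that changed little follows from that. Ratios to genes outside the family were not computed. Prkcq and Prkcd were not distinguished from each other. Their log2 ratio differed from WT by -0.38 in KO (exact p = 0.327), and the difference was -0.25 in KI (exact p = 0.227) and -0.10 without the library labelled KI 4 (exact p = 0.465).

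Prkcq fell relative to every other paralog. In KO the log2 ratio changed most against Prkca, by -2.38, and least against Prkcz, by -1.30, both with an exact p of 0.00216. In KI the extremes were -2.32 against Prkca and -0.97 against Prkch, again with an exact p of 0.00216, and without the library labelled KI 4 they were -2.305 and -0.96 with the same p. Against Prkci the ratio changed by -2.01 in KO and -1.98 in KI (exact p = 0.00216 for both). The ratio to Prkce in KO was less uniform, at -1.54 with an overlap between the genotypes (exact p = 0.00649).

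Prkcd fell relative to the other 6 paralogs. The change was largest against Prkca, with -1.998 in KO and -2.07 in KI, and against Prkci it was -1.63 in KO and -1.73 in KI, all with an exact p of 0.00216. It was smallest against Prkcz, at -0.92 in KO (exact p = 0.0216, adjusted p = 0.0256), and against Prkch, at -0.72 in KI (exact p = 0.0238, adjusted p = 0.0269). For both of these the genotypes overlapped. Without the library labelled KI 4 the KI changes of Prkcd were -0.86 against Prkch and -1.05 against Prkcz, with exact p of 0.0108 and 0.00649.

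**Figure D4:**
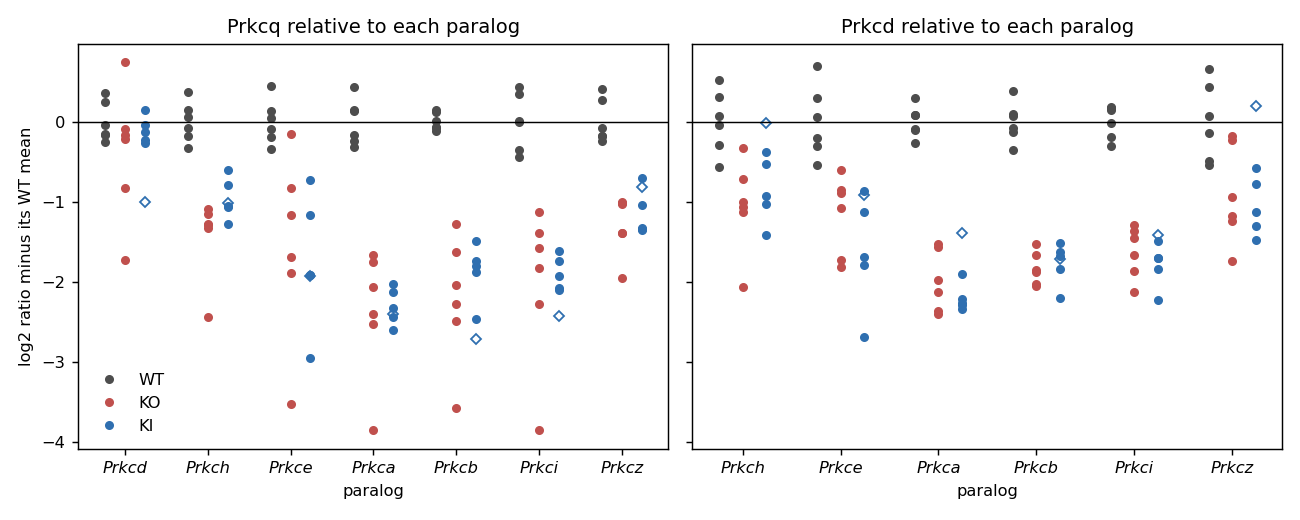
Log2 ratio of Prkcq (left) and Prkcd (right) to each paralog in every library, minus its mean in WT (vertical axis; WT, KO and KI points side by side, the library labelled KI 4 as an open diamond). The KO and KI points lie below 0 for nearly all paralogs, and for Prkcq against Prkcd they straddle it, with mean differences of -0.38 in KO and -0.25 in KI.

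The genes whose profiles were nearest to those of Prkcq and Prkcd were found by the root mean square difference of gene-centred log2 CPM over the 18 libraries, among the other 21057 genes tested. For Prkcq they were 1700009N14Rik (0.0865), Akap1 (0.104), BC106175 (0.124), Clpb (0.132) and Nsun4 (0.135). Akap1 anchors protein kinase A at mitochondria, Clpb encodes a mitochondrial chaperone and Nsun4 a methyltransferase of the mitochondrial ribosome. Their log2 fold changes in KO ran from -1.52 for BC106175 to -1.76 for 1700009N14Rik. For Prkcd they were Slc30a4, a zinc transporter (0.112), Jag1, a ligand of Notch (0.116), Skp2, a ubiquitin ligase subunit (0.117), Tmem269 (0.118) and Tasp1, a protease (0.141). Their log2 fold changes in KO ran from -1.32 for Skp2 to -1.63 for Jag1. Both sets were picked by closeness over these same libraries. Fold changes near those of Prkcq and Prkcd thus follow from the choice. Prkcd was the 613th nearest gene to Prkcq, and Prkcq the 1129th nearest to Prkcd, at a difference of 0.525. The next nearest member to Prkcq was Prkcz, ranked 1151, and to Prkcd it was Prkch, ranked 2445.

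Of the 6 related kinases (the PKN family and the PKD family), 0 were lower and 2 higher in KO, and 0 were lower and 2 higher in KI, with median log2 fold changes of 0.12 and 0.08. Prkd2, which encodes a protein kinase D, a family activated by PKC, had a WT level of 4.84 ± 1.32 CPM, a KO level of 12.5 ± 2.26 and a KI level of 11.4 ± 2.36 (SD, n = 6). Its log2 fold change was 1.37 in KO (adjusted p = 5.13e-06) and 1.23 in KI (adjusted p = 1.67e-05). Pkn2 passed in KO at 0.26 (adjusted p = 0.0967).

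Upstream, phospholipase C supplies diacylglycerol. Of 13 such genes, 1 was lower and 5 higher in KO, and 2 were lower and 5 higher in KI, with medians of 0.27 and 0.33. Plcz1, which encodes the sperm factor that starts calcium oscillations in the egg, had a WT level of 334 ± 34.0 CPM, a KO level of 137 ± 61.2 and a KI level of 134 ± 23.1 (SD, n = 6). Its log2 fold change was -1.29 in KO (adjusted p = 3.41e-04) and -1.32 in KI (adjusted p = 2.30e-04), and the WT libraries, from 292 CPM, did not overlap the KO libraries, up to 214 CPM. Plcb1 rose by 0.95 on the log2 scale in both genotypes (adjusted p of 6.99e-04 in KO and 6.28e-04 in KI), and Plcd3 by 0.65 in KO and 0.83 in KI (adjusted p of 0.0423 and 0.00873), from levels under 2 CPM in WT.

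Diacylglycerol kinases remove diacylglycerol. Of the 8 tested of 10, 0 passed in KO by edgeR or DESeq2, and 0 had an unadjusted p under 0.05. In KI 1 was lower, Dgkh, named after its values were seen, at -0.61 with an adjusted p of 0.0929 (0.166 without the library labelled KI 4). Of the 3 receptors for inositol trisphosphate, 1 was higher in each genotype. Itpr3 had a WT level of 16.2 ± 1.99 CPM, a KO level of 28.6 ± 6.07 and a KI level of 28.2 ± 6.58 (SD, n = 6), a log2 fold change of 0.82 in KO (adjusted p = 7.27e-04).

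PKC must be primed by phosphorylation before it can be activated. Of 7 genes for priming and its removal, 2 were lower and 1 higher in each genotype. Phlpp1, a phosphatase that removes the priming phosphate, fell in KO at -0.48 (adjusted p = 0.0311) and in KI at -0.53 (adjusted p = 0.0170). Pdpk1, the kinase of the activation loop, fell at -0.30 in KO (adjusted p = 0.0687) and -0.43 in KI (adjusted p = 0.0104), from 172 ± 23.9 CPM in WT. Mlst8, an mTOR complex subunit, rose at 0.46 in KO (adjusted p = 0.0718) and 0.43 in KI (adjusted p = 0.0908), where it did not pass without the library labelled KI 4 (adjusted p = 0.179).

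Of 10 scaffolds and partners, 0 were lower and 4 higher in KO, and 1 was lower and 3 higher in KI, with medians of 0.54 and 0.34. Wwc1 encodes a scaffold that binds PKC-zeta, and Pard6g and Llgl1 encode polarity proteins that act with the atypical isoforms. In KO Wwc1 rose by 1.18 on the log2 scale (adjusted p = 5.75e-04), Llgl1 by 0.75 (adjusted p = 0.00408) and Pard6g by 0.71 (adjusted p = 0.00369). In KI they rose by 0.81, 0.55 and 0.82, with adjusted p of 0.0113, 0.0296 and 9.60e-04.

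Of 9 PKC substrates tested of 11, 1 was lower and 2 higher in each genotype. Pebp1, an inhibitor of RAF kinase that is released when PKC phosphorylates it, had a WT level of 424 ± 45.5 CPM, a KO level of 253 ± 77.6 and a KI level of 236 ± 76.2 (SD, n = 6). Its log2 fold change was -0.75 in KO (adjusted p = 0.0133) and -0.84 in KI (adjusted p = 0.00540). The adducins Add1 and Add3, proteins of the membrane skeleton, rose at 0.46 and 0.36 in KO (adjusted p of 0.00863 and 0.0263). Of the CARD, BCL10 and MALT1 module, through which PKC-theta signals in T cells, 4 of 6 genes were tested, and 1 was higher in KO and 2 in KI. Card10, a CARD scaffold found mainly outside lymphocytes, was at 1.69 ± 0.688 CPM in WT and 3.62 ± 0.342 in KO (SD, n = 6), a log2 fold change of 1.09 (adjusted p = 3.74e-04). Over the 8 lists, 4 of 60 genes tested were lower and 16 higher in KO, and 7 were lower and 16 higher in KI (6 and 15 without the library labelled KI 4). As shares these were 6.67% lower and 26.7% higher in KO, beside 13.5% and 16.4% of all genes tested, and 11.7% lower and 26.7% higher in KI, beside 15.4% and 16.1%. For a change of more than 1 log2 unit, 0 of them passed by glmTreat or DESeq2 in either genotype, and an unadjusted p under 0.05 was reached by 1 in KO and 0 in KI.

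Some members share ground with other annotated genes on the same strand in GENCODE M21, 2 for Prkcq, 7 for Prkcb and 1 each for Prkce and Prkci, and reads in any shared exons may be missing from their counts. No such gene overlaps Prkcd, Prkca, Prkch or Prkcz.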

How the data were processed

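The authors made RNA libraries without polyA selection, used cutadapt 3.4 for trimming and STAR 2.7.8a for alignment to GRCm38, counted reads by strand on GENCODE genes with featureCounts (Subread 2.0.1), and deposited raw counts in a table of 54232 genes. The counts were used unchanged, and 0 columns were left without a library. Symbols and positions came from GENCODE M21, in which 97.68% of shared genes had the same extent as in the table, and sequences from GENCODE M21 and RefSeq.

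Genes were filtered with filterByExpr and TMM-scaled, and 1 quasi-likelihood model of genotype over the 18 libraries was fitted with edgeR 4.0.16 (R 4.3.3, limma 3.58.1). glmQLFTest tested any change and glmTreat, in its worst case form, a change past 1 log2 unit, with Benjamini-Hochberg adjustment over all genes and a threshold of 0.1. The scripts were tested on simulated counts. Ratios to paralogs used a prior count of 0.5 and exact permutation tests.

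The members and gene lists were chosen with earlier results of these data known. The genes named are every member, Ddx25, pathway list genes that passed the test for more than 1 log2 unit, the 3 genes of each pathway list with the largest change in KO among those called, and the 5 nearest profiles to Prkcq and to Prkcd. A gene that this rule selects is left out and not reported here. Dgkh and single marker genes are named outside this rule. Besides the markers given, lists of Sertoli, endothelial and macrophage markers, spermatogonia and spermatocytes were examined. Alternatives were DESeq2 1.42.0, its size factors, other filters, only the genotypes compared, a replicate block, a threshold of 0.05, close pairs summed, other prior counts and lengths, each library left out, and, chosen after seeing the data, the null interval form of glmTreat. Python 3.11.15 with matplotlib 3.10.9 drew the figures.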

Additional observations from a re-analysis of the deposited data

Results flagged for a closer look

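In WT, Prkca was lowest in WT 1, at 3.66 CPM, set apart from the next library at 4.25 CPM by more than Dixon's test allows for 6 values. In KI, Prkcd was highest in the library labelled KI 4, at 97.4 CPM, set apart from the next library at 69.5 CPM by the same test. Without WT 1 or without that library, Prkca and Prkcd passed the test for any change in both genotypes. The test was applied to 24 sets of 6 values, and chance alone sets apart about 1 in 20.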

How the results depend on the processing

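The calls of Prkcq and Prkcd as lower and of Prkca as higher by any amount, in KO and in KI, kept their direction and side of the threshold under every alternative. The number of members changed by more than 1 log2 unit did not. In KI it was 2, and it was 1 at an adjusted p under 0.05, 0 with close pairs summed and 0 to 2 when a library was left out. In KO it was 0, and it was 1 without a filter on low counts, 1 with the replicate block, 2 with the null interval form of glmTreat and 0 to 1 when a library was left out. The number changed by any amount in KO was 3, and 3 to 5 when a library was left out. The number of paralog comparisons under 0.1 was 24, 24 to 25 when a library was left out, and 20 with close pairs summed, where the smallest possible p is 0.0179 in KO and 0.0286 in KI.

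Of the values of single members under an alternative, 750 kept their direction and side of the threshold, 22 passed it where the value as reported had not, 15 no longer passed and 23, all near 0, changed sign. For Prkce in KI against WT (-0.02) the log2 fold change was 0.0012 with DESeq2 size factors, 0.00046 without a filter, 0.033 with only the genotypes compared, 0.040 with close pairs summed, and -0.24 to 0.11 when a library was left out. For Prkci in KI against KO (-0.04) it was 0.0017 with DESeq2, 0.0024 with its size factors, 0.022 without a filter, 0.025 with only the genotypes compared, and -0.12 to 0.032 when a library was left out. For Prkcq in KI against KO it was -0.32 to 0.0012 when a library was left out. The causes were not tested.

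Libraries with the same number were not treated as pairs, and the sources used here do not say whether they belong together. The correlations of their deviations from the genotype means lay between -0.44 and 0.48, over 0.1 in 2, 2 and 3 of 6 numbers, and a library correlated best with its own number in 0, 1 and 2 cases (KO against WT, KI against WT, KI against KO). With the replicate block, 4 members in KO and 5 in KI were called by any amount, Prkcq passed 1 log2 unit in KO at -1.79 (adjusted p = 0.0775) and Prkcz passed the test for any change in KO at -0.50 (adjusted p = 0.0764). Prkcb, Prkce and Prkch rest on the fewest counts, between 16 and 107 in a library.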
